A study of Mus musculus with 30 samples.

Results

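Endoderm made from an induced pluripotent stem (iPS) cell clone, ST8, was compared with endoderm made from embryonic stem (ES) cells after 5 days of differentiation. The comparison uses 6 of the 30 samples of the series, chosen by their titles: 3 arrays of ST8 cells at day 5 and 3 arrays of ES cells at day 5, all labelled without amplification. Both groups carry the strain label C57BL/6x129SvJae and were sorted at day 5 as positive for the receptor Kit and dim for Sox2. ST8 is a single iPS clone, and no agent, transgene or reprogramming method is named in the labels used here. RNA was isolated with the miRNeasy Mini kit from 3 biological replicates per group and labelled with the Affymetrix kit. How the replicate cultures were kept apart is not given, so p-values measure the spread between these arrays. The series as a whole compares ES cells, the iPS clones ST5 and ST8, and E8.25 mouse embryos. ES, ST5 and ST8 cells were also measured undifferentiated at day 0, sorted as Sox2 bright, and ST5 cells at day 5 with the same sort.

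Definitive endoderm is the germ layer that forms the lining of gut and airway, the liver and the pancreas, and its cells turn on Sox17, Foxa2, Hhex and Cxcr4 while the pluripotency factors Pou5f1 and Nanog go down. Imprinted genes are read from only 1 parental chromosome under the control of DNA methylation marks. In the imprinted Dlk1-Dio3 domain the paternal chromosome expresses the coding genes Dlk1, Rtl1 and Dio3, and the maternal chromosome expresses the noncoding RNAs Meg3, Rian and Mirg together with a large group of microRNAs (miRNAs) and small nucleolar RNAs. Silencing of the maternal noncoding genes of this domain is known from some mouse iPS clones.

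Levels are log2 values per probe set, so a difference of 1 is a 2-fold change, and each difference is ST8 minus ES. A probe set was called where the adjusted p (limma moderated test, Benjamini-Hochberg over 21789 probe sets naming 1 gene) was under 0.05. Array medians over all probe sets of the 6 arrays lay between 5.54 and 5.57, and the number of arrays limits the precision.

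Both groups held arrays with endoderm markers, and in each group 1 array stood apart from the other two. Sox17, a transcription factor of endoderm, had levels of 7.40, 9.30 and 7.23 in ST8 replicates 1 to 3, against 9.35, 7.15 and 7.28 in ES replicates 1 to 3. Hhex, a homeobox factor of anterior endoderm, had 7.93, 9.75 and 7.79 in ST8 arrays and 9.61, 7.53 and 7.43 in ES arrays. In both genes ST8 replicate 2 and ES replicate 1 were the high arrays, and the groups overlapped. Pou5f1, a core pluripotency factor, went the other way, with 10.48, 7.25 and 10.43 in ST8 arrays and 8.41, 9.64 and 9.61 in ES arrays. Cxcr4, the chemokine receptor of definitive endoderm, lay between 10.02 and 11.36 in ST8 arrays and between 10.12 and 11.37 in ES arrays. Dppa5a, a marker gene of pluripotent cells, was at 5.03 to 5.77 in ST8 arrays and 5.77 to 6.55 in ES arrays, and the F-box gene Fbxo15 was between 3.29 and 3.72 in all 6.

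**Figure D1:**
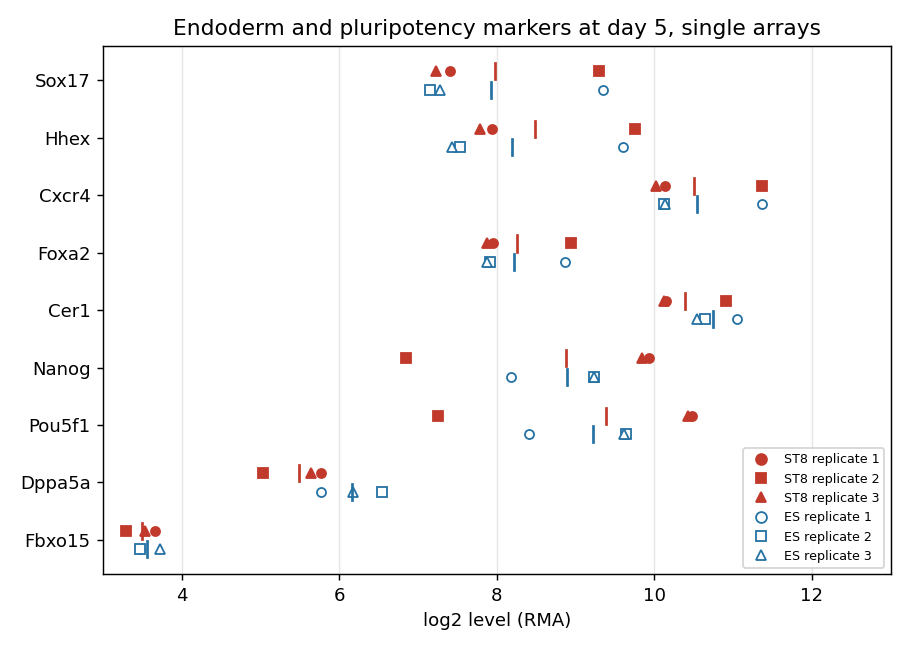
Log2 levels (x axis) of 9 endoderm and pluripotency markers in the 3 ST8 arrays (filled, upper row of each gene) and the 3 ES arrays (open, lower row) at day 5, with a vertical bar at each group mean. ST8 replicate 2 and ES replicate 1 lie to the right for Sox17, Hhex, Cxcr4 and Foxa2 and to the left for Nanog and Pou5f1.

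ST8 replicate 2 had 693 of 21789 probe sets more than 1 log2 unit from the mean of the other ST8 arrays, and ES replicate 1 had 366 that far from the other ES arrays, while the other 4 arrays had 21 to 105. The deviations of these arrays from their group means correlated across probe sets (Pearson r = 0.717, a description over probe sets of 1 platform). Averaged over 19 probe sets of definitive endoderm markers, ST8 replicate 2 lay 0.65 and ES replicate 1 lay 0.63 above the mean of the 6 arrays, and the other 4 lay 0.29 to 0.38 below it. The results are therefore given for all 6 arrays and, where this changes them, without these 2 arrays. The pair was known to stand apart from earlier results of these data. The fit without it tests again values on which it stood apart, so its calls are descriptive. A lower share of cells of a type and less RNA per cell cannot be told apart in such bulk samples. Kit and Sox2 served in the sort and are no findings between the groups: Kit was at 8.22, 9.68 and 8.04 in ST8 arrays and 9.77, 7.97 and 8.16 in ES arrays.

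With all arrays, 36 of 21789 probe sets (0.165%) were called, 12 of them higher in ST8 (0.0551%) and 24 lower (0.11%). The calls divided into 13 probe sets of the Dlk1-Dio3 domain, all lower in ST8, and 23 outside it, of which 12 were higher and 11 lower. In all 36 the 3 ST8 arrays did not overlap the 3 ES arrays, a condition that 5.68% of all probe sets met with ST8 above and 10% with ST8 below. Only 16 of the 36 differed at least 2-fold. Without an adjustment, 2697 probe sets (12.4%) had p under 0.05. By the means alone 13 probe sets (0.0597%) were at least 2-fold higher in ST8 and 34 (0.156%) at least 2-fold lower, and the median difference over all probe sets was -0.01. Without ST8 replicate 2 and ES replicate 1 together, 1719 probe sets (7.89%) were called, 914 higher and 805 lower, and these held all 36. Without ST8 replicate 2 alone 266 (1.22%) were called, 188 of them higher (0.863%), and without ES replicate 1 alone 143 (0.656%). Fitted on the 6 arrays alone, without the ST5 arrays that share the estimate of spread, 9 probe sets (0.0413%) were called, all lower in ST8, and fitted with all 18 unamplified arrays 193 (0.886%).

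Meg3, the long noncoding RNA at the start of the maternally expressed side of the domain, had the largest fall of any probe set naming 1 gene. Its levels were 5.07, 5.22 and 5.08 in ST8 arrays, against 10.18, 9.76 and 9.91 in ES arrays. The difference was -4.83 (SE 0.11, n = 3 each, adjusted p = 2.18e-07 by limma), which is 28.4-fold more in ES endoderm. Rian, the noncoding host of box C/D small nucleolar RNAs, had 3.62, 3.58 and 3.62 in ST8 arrays and 7.18, 6.73 and 6.88 in ES arrays. Its difference was -3.32 (SE 0.13, adjusted p = 5.77e-06). The arrays of each group lay close together in both genes, and neither ST8 replicate 2 nor ES replicate 1 came near the other group.

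The other called members were small RNA genes. DQ267102 and DQ267101, listed among the small RNAs of the domain, fell by 2.95 and 1.71 (SE 0.12 and 0.22). Among 40 miRNA genes measured by a probe set of their own, 9 were called lower and none higher in ST8, beside 0.11% and 0.0551% of all probe sets. Of the 40, 17 had an ES mean under 4, and none of these was called. Mir382 had 2.66, 2.63 and 2.48 in ST8 arrays and 6.20, 4.82 and 4.83 in ES arrays, a difference of -2.69 (SE 0.32, adjusted p = 0.0148). Mir300 had 2.48, 2.73 and 2.51 in ST8 arrays and 5.65, 4.58 and 5.19 in ES arrays (difference -2.57, adjusted p = 0.00421). In both miRNA genes ES replicate 1 was the highest array and every ST8 array lay below every ES array. Mir380 and Mir329 each differed by -2.18 (SE 0.17 and 0.20), Mir679 by -1.68 and Mir323 by -1.11, while Mir341, Mir673 and Mir337 differed by -0.67, -0.66 and -0.56. Each probe set stands for a miRNA gene, and how its signal divides between precursor and mature arms was not measured.

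The mature miRNAs of the 4 genes with a called fall of over 2 log2 units are shown, since these are the largest differences among the called miRNA genes. They are RefSeq sequences with GRCm38.p6 positions, and capitals mark the seed, bases 2 to 8, through which a miRNA pairs with its targets.
mmu-miR-380-5p (chr12:109711806-109711827, plus strand): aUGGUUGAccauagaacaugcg
mmu-miR-380-3p (chr12:109711842-109711863, plus strand): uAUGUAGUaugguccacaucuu
mmu-miR-329-5p (chr12:109713503-109713524, plus strand): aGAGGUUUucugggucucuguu
mmu-miR-329-3p (chr12:109713541-109713562, plus strand): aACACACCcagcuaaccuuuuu
mmu-miR-300-5p (chr12:109724318-109724339, plus strand): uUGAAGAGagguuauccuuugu
mmu-miR-300-3p (chr12:109724363-109724384, plus strand): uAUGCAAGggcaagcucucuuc
mmu-miR-382-5p (chr12:109733781-109733802, plus strand): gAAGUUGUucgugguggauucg
mmu-miR-382-3p (chr12:109733819-109733840, plus strand): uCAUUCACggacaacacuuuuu
All 40 miRNA genes matched the RefSeq table, with 76 mature sequences and 74 different seeds. Only 2 seeds were shared within the domain, by miR-376b-5p with miR-376c-5p and by miR-379-3p with miR-411-3p, and the 8 mature miRNAs printed here have no seed in common.

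Across the whole domain the direction was nearly uniform. Of 48 probe sets, 47 had a negative difference and 41 had every ST8 array below every ES array, beside 10% of all probe sets. The median difference of the domain was -0.69, against -0.01 over all probe sets. Of the 48, 13 passed the test, all lower, beside 0.11% of all probe sets called lower. ES replicate 1 was the highest ES array in 37 of 48. Mir377 had 2.27, 2.20 and 2.18 in ST8 arrays and 5.79, 4.07 and 3.92 in ES arrays, a difference of -2.38 that was not called (adjusted p = 0.0966). Mir154, Mir487b and Mir539 differed by -1.51, -1.48 and -1.41 (adjusted p = 0.149, 0.0814 and 0.178). Of the 48, 18 had an ES mean under 4, close to the bottom of the scale. None of these was called, Mir154 and Mir539 among them. When ST8 replicate 2 and ES replicate 1 were left out, 33 were called lower, beside 3.69% of all probe sets in that fit.

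None of the 3 coding genes of the domain was called. Dlk1, a transmembrane protein with EGF-like repeats, was the one probe set of the 48 with a positive difference, at 7.27, 8.04 and 7.40 in ST8 arrays and 6.88, 6.76 and 7.03 in ES arrays. All ST8 arrays lay above the ES arrays, yet the difference of 0.67 was not called (SE 0.20, adjusted p = 0.288). Rtl1, a retrotransposon-derived gene, differed by -0.29 (adjusted p = 0.341), and by -0.39 without ST8 replicate 2 and ES replicate 1 (adjusted p = 0.0499). Dio3, the deiodinase that inactivates thyroid hormone, differed by -0.14 (adjusted p = 0.697). Mirg had no probe set of its own, and a probe set listed with both Mirg and Mir410 had 2.71, 2.97 and 2.50 in ST8 arrays and 6.17, 4.84 and 5.00 in ES arrays (difference -2.61, adjusted p = 0.0223 over all deposited probe sets).

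**Figure D2:**
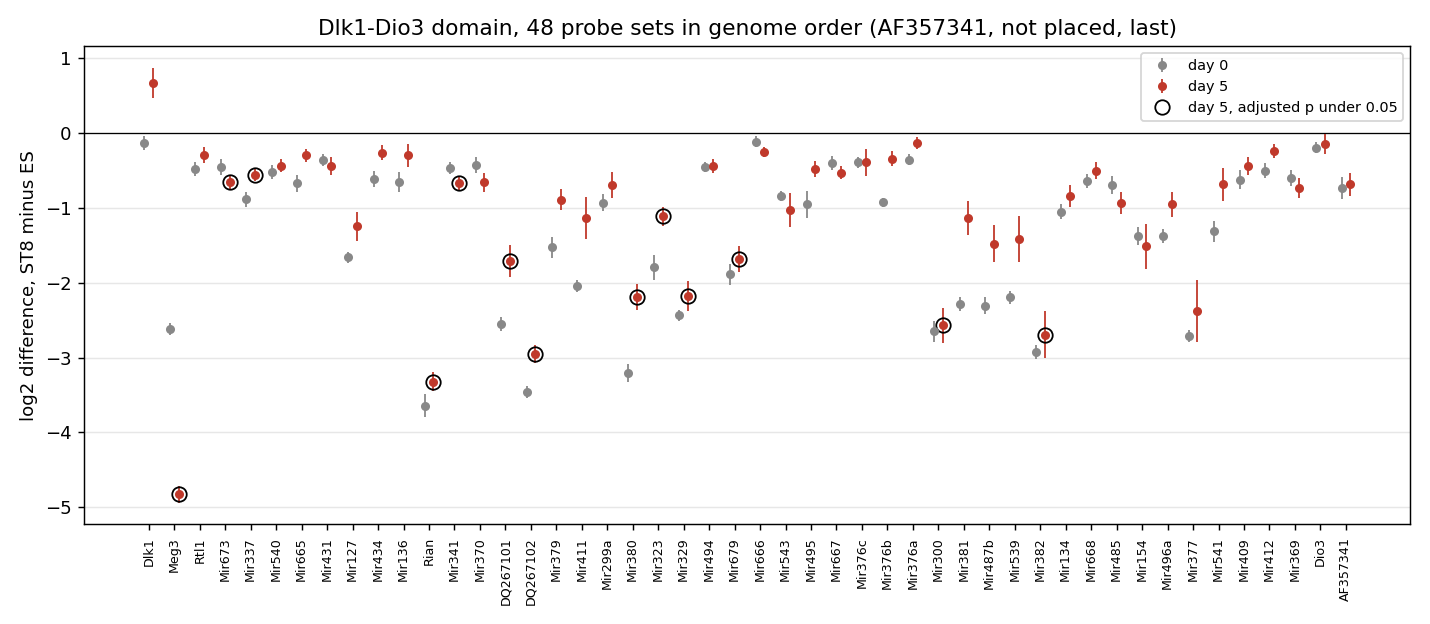
Log2 difference, ST8 minus ES (y axis, with standard error), of the 48 probe sets of the Dlk1-Dio3 domain in genome order (x axis; AF357341, which has no position, is put last) at day 0 (grey) and day 5 (red), with circles around the 13 called at day 5. Meg3 at -4.83 and Rian at -3.32 are lowest at day 5, and Dlk1 alone is above 0.

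Outside the domain, Nnat showed the largest fall among probe sets naming 1 gene. Nnat encodes neuronatin, a small membrane proteolipid, and is expressed from the paternal chromosome. It had 5.11, 5.40 and 5.54 in ST8 arrays and 9.55, 9.26 and 9.42 in ES arrays. The difference was -4.06 (SE 0.13, adjusted p = 2.12e-06), or 16.7-fold more in ES endoderm. In ST5 endoderm, the other iPS clone, Nnat averaged 9.27, and ST8 was below ST5 by a difference of -3.92 (SE 0.13, adjusted p = 5.85e-06), whereas ST5 minus ES was -0.14 (adjusted p = 0.481).

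ST5 and ST8 endoderm are set against the same ES arrays, so their differences are given side by side. Between ST5 and ES endoderm 1631 probe sets (7.49%) were called, 3.31% of all lower in ST5. Of the 48 domain probe sets 34 were called lower in ST5, with a median difference of -0.77. Meg3 differed from ES endoderm in both clones. ST8 averaged 5.12 and ST5 5.20, with ES at 9.95, and ST8 minus ST5 was -0.08 (adjusted p = 0.729). Nr1h5 was at 4.97 in ST8 minus ES and 3.37 in ST5 minus ES, Tgfb2 at -2.07 and -1.44, and Mir382 at -2.69 and -2.55, all called. Between ST8 and ST5 endoderm 223 probe sets (1.02%) were called, 3 of them among the 36. These 3 were Nnat, Kcnma1 at -0.91 (adjusted p = 0.0207) and Lhfp at -0.62 (adjusted p = 0.0221).

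Nr1h5 showed the largest rise among probe sets naming 1 gene. It encodes farnesoid X receptor beta, a nuclear receptor. Its levels were 8.81, 6.66 and 8.85 in ST8 arrays, against 3.13, 2.93 and 3.35 in ES arrays. ES endoderm was near the bottom of the scale in every array, and ST8 replicate 2 was the lowest ST8 array, though still well above all ES arrays. The difference was 4.97 (SE 0.50, adjusted p = 0.00733) with all arrays and 5.69 (adjusted p = 1.24e-06) without ST8 replicate 2 and ES replicate 1. The call was lost in the fit of 6 arrays alone (adjusted p = 0.102). Nr1h5 had been placed in the list of germline and 2-cell genes. There it was the only call of 22 probe sets, beside 0.165% of all probe sets. The lists were made with earlier results of these data known, so this placing gives the gene no germline identity.

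The region before the transcript start is shown for the 3 genes with the largest differences of a named gene, Meg3, Nnat and Nr1h5. They are RefSeq windows of GRCm38.p6 from 250 bases before to 50 bases after the start, printed 5′ to 3′ on the gene's strand, and capitals mark the dinucleotide CG, the target of DNA methylation, which reads the same on both strands.
Meg3 (chr12:109540746-109541045, plus strand): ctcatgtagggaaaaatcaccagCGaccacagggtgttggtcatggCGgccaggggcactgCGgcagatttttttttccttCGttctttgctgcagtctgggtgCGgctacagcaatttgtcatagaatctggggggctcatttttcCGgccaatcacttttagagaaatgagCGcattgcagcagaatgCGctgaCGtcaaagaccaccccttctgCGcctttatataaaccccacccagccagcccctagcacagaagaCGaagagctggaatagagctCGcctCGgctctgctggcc
Nnat (chr2:157559828-157560127, plus strand): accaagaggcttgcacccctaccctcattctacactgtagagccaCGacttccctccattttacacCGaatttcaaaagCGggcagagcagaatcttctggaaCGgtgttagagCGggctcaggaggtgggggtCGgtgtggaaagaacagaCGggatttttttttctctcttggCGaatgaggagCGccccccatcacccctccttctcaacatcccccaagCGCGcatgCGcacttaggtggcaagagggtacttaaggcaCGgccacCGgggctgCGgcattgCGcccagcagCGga
Nr1h5 (chr3:102964084-102964383, minus strand): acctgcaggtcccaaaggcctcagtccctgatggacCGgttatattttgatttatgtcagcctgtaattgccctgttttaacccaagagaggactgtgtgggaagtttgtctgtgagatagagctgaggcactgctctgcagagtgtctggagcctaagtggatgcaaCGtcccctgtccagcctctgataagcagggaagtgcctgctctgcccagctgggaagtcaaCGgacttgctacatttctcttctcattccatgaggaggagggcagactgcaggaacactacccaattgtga
The Meg3 window, the first of 2 listed for the gene, holds 13 CG and the Nnat window 17, and 37.9% and 31.4% of all 32851 windows hold at least as many. The Nr1h5 window holds 3, which 76.7% of windows reach, the median is 7, and 94.6% hold at least 1. Methylation was not measured in these samples.

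Among growth factor genes, Tgfb2 was lower in ST8. Tgfb2 encodes transforming growth factor beta 2, a secreted ligand. It had 5.70, 6.59 and 5.65 in ST8 arrays and 8.17, 8.03 and 7.96 in ES arrays. The difference was -2.07 (SE 0.22, adjusted p = 0.00937), a 4.2-fold lower level in ST8. It was the only call among 20 probe sets of the Nodal and activin list, whose median difference was 0.01. Of all probe sets, 0.165% were called. Lyplal1, a lysophospholipase-like gene that is the next tested gene beside Tgfb2 on chromosome 1, differed by -0.75 (SE 0.11, adjusted p = 0.0392). The genes next on either side, Slc30a10 at -0.39 and Rrp15 at 0.05, were not called (adjusted p = 0.27 and 0.943). Both the Tgfb2 and the Lyplal1 call were lost in several fits, among them the one of 6 arrays alone (adjusted p = 0.121 and 0.289).

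Kcnma1, the pore-forming subunit of the large-conductance calcium-activated potassium channel, is represented by probe sets that disagree. One had 6.86, 7.06 and 7.05 in ST8 arrays and 9.07, 8.92 and 8.84 in ES arrays, a difference of -1.96 (SE 0.12, adjusted p = 0.00018). This probe set is listed with no RefSeq transcript. The other, which is listed with RefSeq transcripts, had 4.55, 3.89 and 4.65 in ST8 arrays and 4.14, 4.32 and 4.34 in ES arrays, a difference of 0.09 (adjusted p = 0.868). The fall therefore belongs to a single probe set and is uncertain for the gene. AI506816, a provisional gene symbol that the naming rule passes over and that is named here after its values were seen, had 2.77, 3.01 and 2.86 in ST8 arrays and 6.25, 5.79 and 6.06 in ES arrays. Its difference was -3.15 (SE 0.14, adjusted p = 1.89e-05), and it was -2.67 at day 0 (adjusted p = 6.04e-06). The called probe sets of Rian, AI506816 and Platr25 are likewise listed with no RefSeq transcript.

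The remaining calls were smaller than 2-fold except for Cpq. Cpq, a secreted carboxypeptidase, had 6.62, 6.98 and 6.77 in ST8 arrays and 5.83, 5.84 and 5.68 in ES arrays, a difference of 1.01 (SE 0.12, adjusted p = 0.0142). The other rises were those of the calpain protease Capn11 (0.91), the pseudogene Gpr137b-ps (0.88), the ubiquitin ligase Trim25 (0.80), the Ras-association gene Rassf6 (0.77), Uty (0.70), the liver glycogen phosphorylase Pygl (0.69), Sfi1 (0.61), Tmem267 (0.59) and Etv5 (0.46). Rassf6 had 5.83, 5.66 and 5.94 in ST8 arrays and 5.12, 4.86 and 5.12 in ES arrays, and Pygl had 7.05, 7.23 and 7.16 in ST8 arrays and 6.37, 6.42 and 6.58 in ES arrays. In both genes the gap between the groups was wider than the range within either group. Probes of Gpr137b-ps can bind RNA of its parent gene, so the source of that signal is uncertain. The let-7 gene Mirlet7f-1, outside the naming rule and named here after its values were seen, differed by 0.73 (adjusted p = 0.00892). Etv5, an ETS transcription factor that responds to FGF signals, has another probe set, at a difference of 0.51 that was not called (adjusted p = 0.108).

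The smaller falls outside the domain lay between -0.72 and -0.57. They were those of the X-linked ubiquitin ligase Mid1 (-0.72), the respiratory complex I subunit Ndufs5 (-0.72), the noncoding RNA Platr25 (-0.71), the forkhead factor Foxd4 (-0.71), Lhfp (-0.63) and the nucleoside diphosphatase Entpd4 (-0.57). Ndufs5 was the tightest of these, with 6.39, 6.44 and 6.44 in ST8 arrays and 7.16, 7.14 and 7.13 in ES arrays. Mid1 had 8.43, 8.46 and 8.38 in ST8 arrays and 9.23, 9.03 and 9.18 in ES arrays, and Platr25 had 6.62, 6.72 and 6.58 in ST8 arrays and 7.21, 7.45 and 7.39 in ES arrays. At day 0 Mid1 differed alike, by -0.72, whereas Platr25 was higher in ST8 by 0.44 (adjusted p = 0.0243).

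**Figure D3:**
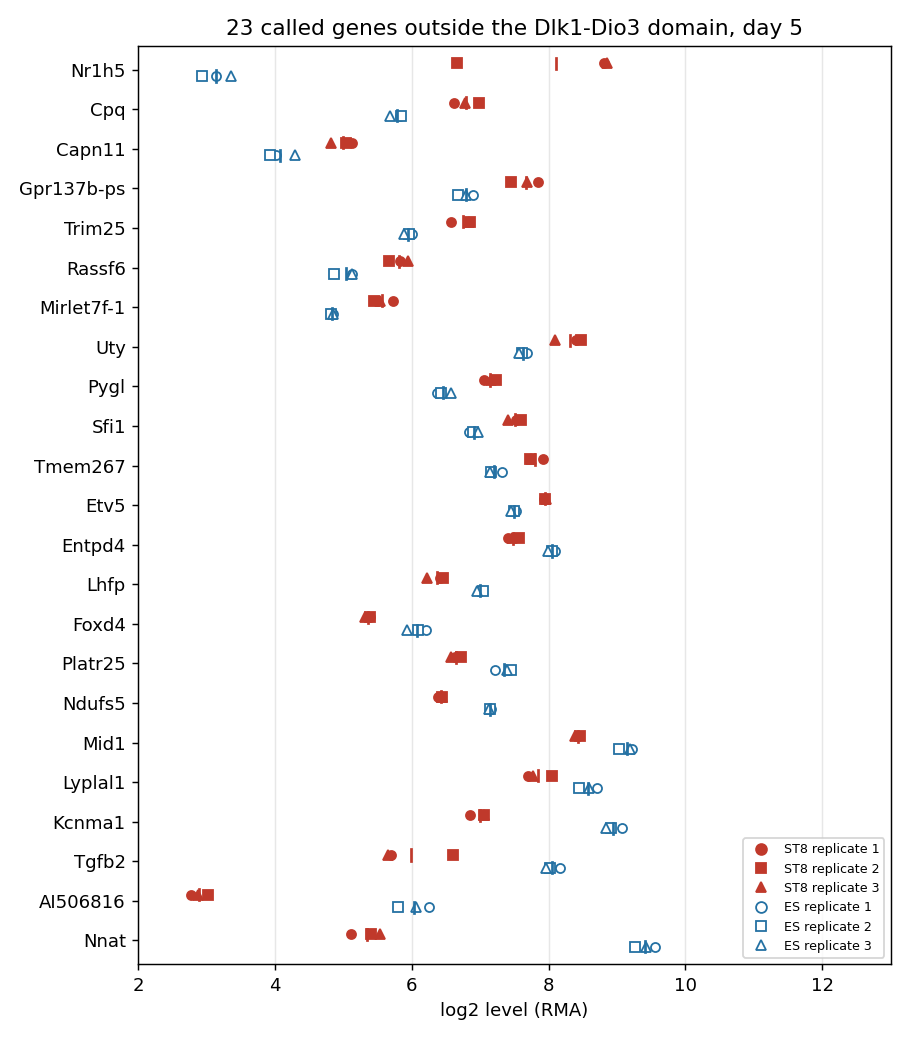
Log2 levels (x axis) of the 23 called genes outside the Dlk1-Dio3 domain in the 3 ST8 arrays (filled, upper row of each gene) and the 3 ES arrays (open, lower row) at day 5, with a vertical bar at each group mean. The groups do not overlap in any of the 23, and Nr1h5 at the top and Nnat at the bottom are the widest apart.

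With all arrays Nnat was the only call among the other listed imprinted genes that have a probe set naming 1 gene. Of 23 probe sets of paternally expressed genes outside the domain, 1 was called, and of 23 of maternally expressed genes none was called. Their median differences were -0.15 and -0.08, beside -0.01 over all probe sets, of which 0.165% were called. In the fit that leaves out ST8 replicate 2 and ES replicate 1, 7 of the 23 paternally expressed probe sets were called lower and 1 higher, and 2 of the 23 maternally expressed ones lower and 2 higher, beside 3.69% of all probe sets called lower and 4.19% higher. Zim1 was among them at -0.83 (adjusted p = 0.00255). Slc38a4, an amino acid transporter, differed by -0.52 (adjusted p = 0.235), Zim1 by -0.67 (0.108), Phlda2, a growth restrictor of the placenta, by 0.45 (0.0866) and Sfmbt2 by 0.55 (0.168), each with groups that did not overlap. Airn, the noncoding RNA that silences Igf2r, ranged from 6.64 to 9.03 in ST8 arrays and from 6.29 to 8.03 in ES arrays (difference 0.65, adjusted p = 0.705). Igf2, a fetal growth factor, had 10.42, 11.19 and 10.67 in ST8 arrays and 10.98, 10.94 and 11.01 in ES arrays (difference -0.22, adjusted p = 0.621). H19 had no probe set of its own. A probe set listed with both Mir675, a miRNA made from H19, and Supt6 was higher in ST8 by 4.82 (limma adjusted p = 8.34e-05 over all deposited probe sets).

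Of 8 sex-linked probe sets, Uty was the only call, beside 0.165% of all probe sets called. Uty, the Y-linked relative of the histone demethylase Utx, had 8.39, 8.47 and 8.09 in ST8 arrays and 7.69, 7.61 and 7.57 in ES arrays (adjusted p = 0.0401). Eif2s3y, a Y-linked translation factor, lay between 8.98 and 9.13 in ST8 arrays and between 8.63 and 8.77 in ES arrays (difference 0.36, adjusted p = 0.161). Xist, the noncoding RNA of X inactivation, was between 3.33 and 3.88 in all 6 arrays.

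No call fell in the lists of the endoderm programme. Since 0.165% of all probe sets were called, no call in lists of this size is near the general share. None of 18 endoderm transcription factor probe sets, 19 definitive endoderm marker probe sets, 16 of secreted endoderm products, 32 of pluripotency genes or 17 of epiblast genes passed the test, and their medians lay between -0.05 and 0.05. Sox17 differed by 0.05 (SE 0.65, adjusted p = 0.984) and Foxa2 by 0.04 (SE 0.32, adjusted p = 0.974). Pou5f1 differed by 0.17 (SE 0.76, adjusted p = 0.955). Beside the standard error of 0.11 for Meg3, these errors leave room for differences that 3 arrays a group cannot show.

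Without ST8 replicate 2 and ES replicate 1, some of these genes passed. Pou5f1 differed by 0.83 (adjusted p = 0.00109) and Tfcp2l1, a naive pluripotency factor, by 0.82 (adjusted p = 0.0103), and 6 of 32 pluripotency probe sets were called higher and none lower, beside 4.19% of all probe sets called higher. Beside 4.19% of all probe sets called higher and 3.69% lower, 2 of 19 definitive endoderm probe sets were called higher and 3 lower. Among these, Cer1, which binds and blocks Nodal and BMP ligands outside the cell, differed by -0.46 (adjusted p = 0.0113), Frzb, a secreted Wnt antagonist, by -0.76 (adjusted p = 0.00526) and Hhex by 0.38 (adjusted p = 0.028). This fit rests on 2 arrays per group, with the spread shared with the ST5 arrays. The arrays left out were the extreme ones of their groups in markers such as Pou5f1 and Hhex. Leaving them out narrows the spread of the same genes, so these calls are a description and not independent of that choice.

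Cholesterol synthesis genes had positive differences that did not pass the test. All 19 probe sets, of 17 genes, had a positive difference with a median of 0.26, and 6 of 19 had every ST8 array above every ES array, beside 5.68% of all probe sets. Idi1, which isomerises isopentenyl diphosphate, had 9.59, 9.35 and 9.39 in ST8 arrays and 9.32, 8.91 and 8.83 in ES arrays (difference 0.43, adjusted p = 0.288). Lss, lanosterol synthase, had 8.76, 8.55 and 8.56 in ST8 arrays and 8.53, 8.16 and 8.10 in ES arrays (difference 0.36, adjusted p = 0.31). With ST8 replicate 2 and ES replicate 1 left out, 9 of 19 were called higher, beside 4.19% of all probe sets, and the median was 0.36. The list's mean level was 9.28, 9.29 and 9.12 in ST8 arrays and 9.23, 8.83 and 8.82 in ES arrays, so ES replicate 1 lay above ST8 replicate 3.

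Genes of mesenchyme, fibroblasts and antigen presentation had negative median differences, without a call and with groups that overlapped. The 14 mesenchymal probe sets had a median of -0.39, and their mean level, less its mean over the 6 arrays, was -0.05, -0.56 and -0.01 in ST8 arrays and -0.24, 0.45 and 0.40 in ES arrays. In 3 of 14 all ST8 arrays lay below all ES arrays, beside 10% of all probe sets. Among the 3 was Acta2, smooth muscle actin, at 8.11, 8.74 and 8.78 in ST8 arrays and 9.33, 9.83 and 9.55 in ES arrays (difference -1.03, adjusted p = 0.108). The 18 fibroblast probe sets had a median of -0.26, with mean levels per array of 5.17 to 5.39 in ST8 and 5.27 to 5.68 in ES. Of these, 5 of 18 had all ST8 arrays below all ES arrays, beside the same 10%. Lum and Dcn of the fibroblast list lay between 2.63 and 4.88 in all 6 arrays, below the list's mean levels, so other members were higher. The 11 histocompatibility probe sets had a median of -0.32 and mean levels of 5.94, 5.62 and 6.03 in ST8 arrays and 5.67, 6.36 and 6.35 in ES arrays, and in 0 of 11 did the groups keep apart. In all 3 lists the mean of ES replicate 1 lay below those of ST8 replicates 1 and 3. Without ST8 replicate 2 and ES replicate 1, 5 of 14, 7 of 18 and 6 of 11 were called lower and none higher, beside 3.69% of all probe sets called lower. Epithelial junction and keratin genes had 0 of 29 calls and a median of 0.18, and 8 higher and 1 lower calls without these arrays, beside 4.19% of all probe sets called higher. The part that other cells in the sort play in these values was not tested.

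**Figure D4:**
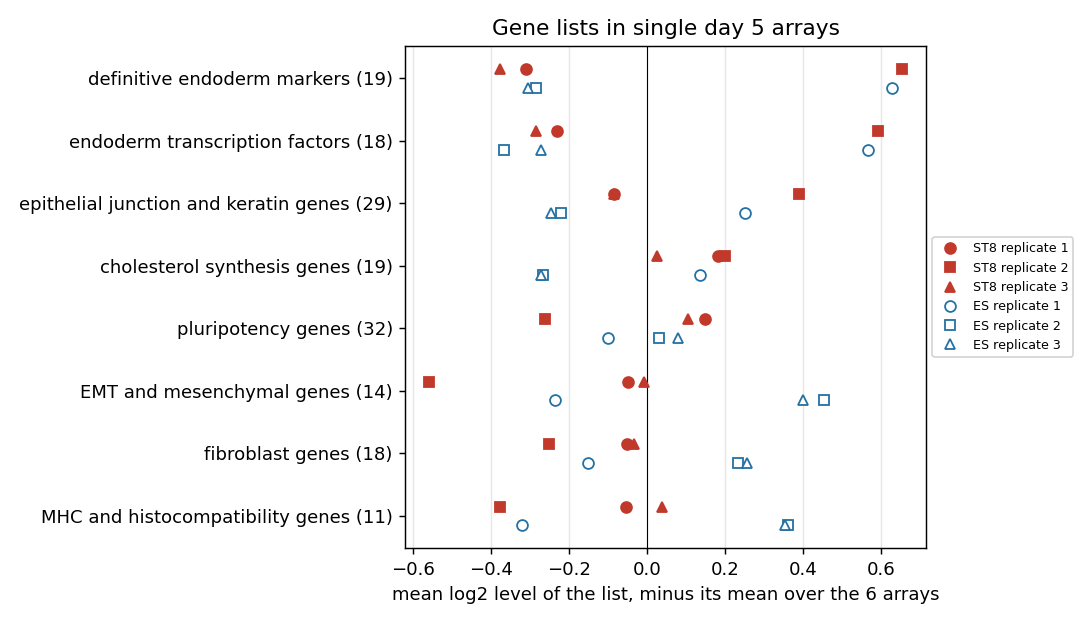
Mean log2 level of 8 gene lists in each day 5 array, minus the list's mean over the 6 arrays (x axis), for ST8 arrays (filled, upper row) and ES arrays (open, lower row), with the number of probe sets in brackets. ST8 replicate 2 and ES replicate 1 share a side in the 2 endoderm lists, at 0.57 to 0.65, and the fibroblast, mesenchymal and histocompatibility lists are highest in ES replicates 2 and 3.

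The largest differences that were not called came from genes with wide spread. Trim12a, a member of a duplicated family, had 4.09, 3.54 and 4.18 in ST8 arrays and 4.96, 6.57 and 5.99 in ES arrays (difference -1.90, adjusted p = 0.108). Kcnj3, a potassium channel gene, had 4.74, 4.66 and 4.73 in ST8 arrays and 5.38, 6.74 and 6.58 in ES arrays (difference -1.52, adjusted p = 0.134). In both, the groups did not overlap and ES replicate 1 was the ES array nearest to ST8. On the other side stood Srgn at 1.47, Pyy, a gut peptide hormone, at 1.45, Tnc at 1.36, the apolipoprotein Apoa1 at 1.28, the retinol carrier Rbp4 at 1.27 and the peptidase Dpp4 at 1.14 (adjusted p = 0.27 to 0.467). Pyy had 9.15, 11.34 and 9.75 in ST8 arrays and 10.41, 7.48 and 7.99 in ES arrays, highest in the 2 arrays that stand apart.

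The same lines at day 0 share no array with this comparison. In undifferentiated cells 1573 probe sets (7.22%) were called between ST8 and ES. Of the 36 day 5 calls, 25 were also called at day 0 in the same direction and 1, Platr25, in the opposite one. Outside the domain 12 of 23 were called at day 0 in the same direction. Of the 48 domain probe sets, 45 were called lower in ST8 at day 0, beside 3.3% of all probe sets, with a median of -0.90. Nr1h5 averaged 9.88 in ST8 and 3.10 in ES cells at day 0, a difference of 6.78 (adjusted p = 9.01e-10).

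The size of the difference changed between the days for some genes. Meg3 averaged 7.62 in ST8 and 10.24 in ES cells at day 0, a difference of -2.62, and its day 5 difference was larger by -2.21 (SE 0.14, adjusted p = 5.16e-07 for the change). Nnat averaged 4.95 in ST8 and 6.56 in ES cells at day 0, a difference of -1.61, and the change to day 5 was -2.45 (SE 0.17, adjusted p = 1.04e-06). Tgfb2 averaged 4.79 in ST8 and 4.94 in ES cells at day 0, a difference of -0.15 that was not called (adjusted p = 0.387). Its change was -1.92 (SE 0.26, adjusted p = 0.00146). The called Kcnma1 probe set likewise had no called difference at day 0 (-0.09, adjusted p = 0.62) and a change of -1.87 (adjusted p = 1.16e-05). Over all probe sets 166 (0.762%) changed between the days, 63 up and 103 down (0.473%). The genes named here were picked for their day 5 differences, and the same day 5 arrays enter this test.

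**Figure D5:**
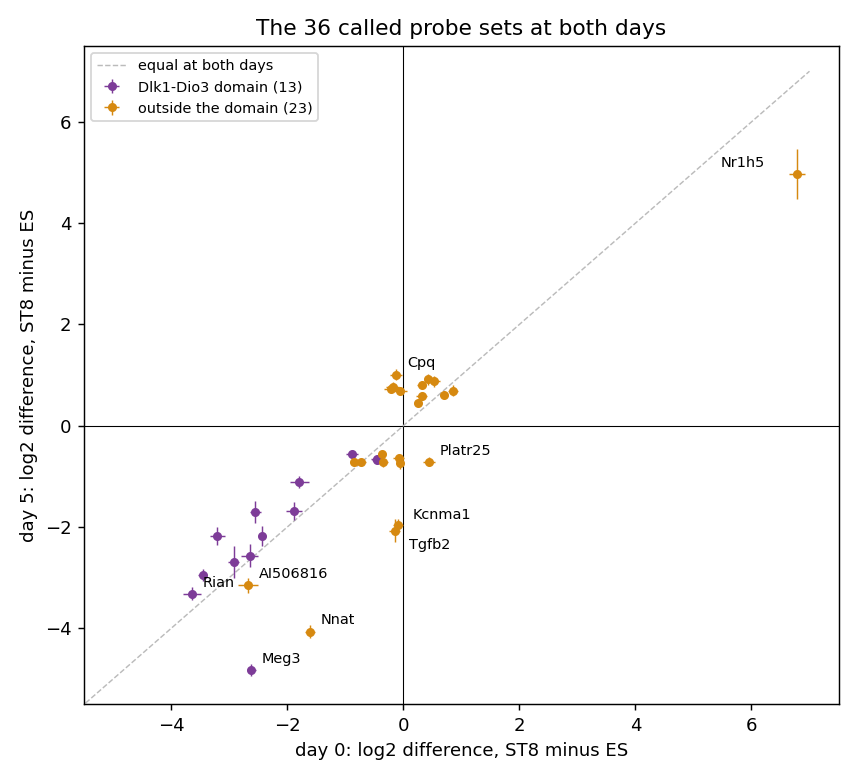
Log2 difference, ST8 minus ES, of the 36 called probe sets at day 0 (x axis) and at day 5 (y axis), with standard errors, for the domain (purple) and the rest (orange). Meg3 and Nnat lie below the line of equal differences, Tgfb2 and Kcnma1 are near 0 at day 0, and Nr1h5 is high at both days.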

How the data were processed

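Gene expression was measured in 30 samples with Affymetrix Mouse Gene 1.0 ST arrays. The deposited values are log2 levels. The submitters' processing notes name RMA, with no version given in the sources used here. RMA as usually run makes the arrays' distributions alike, so a shift of all genes cannot be seen, and it sets no true zero. Of 35556 deposited probe sets, 21789 name 1 gene in the platform annotation (19938 genes) and were tested; 1621 naming several genes and 12146 not listed were left out. Names and neighbours come from RefSeq (21698 probe sets matched, 99.6%).

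The tests were limma's (version 3.58.1, run in R 4.3.3), with a mean per group over the 9 unamplified day 5 arrays (ST8, ST5 and ES, 6 residual degrees of freedom), two-sided, adjusted over all probe sets. SE comes from this fit. The 9 day 0 arrays were fitted alike, and the change between days over 18 arrays. An exact permutation test of 3 against 3 arrays cannot go below 0.1, so none is given. Code was tested on simulated data. Deviations of same-numbered arrays from their group means correlated at r = -0.55, -0.64 and 0.49 for replicates 1 to 3; since not every pair was above 0.1, the numbers were not taken to pair the arrays.

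The members, the 35 gene lists and the naming rule were chosen with earlier results of these data known. The rule names the 12 largest called differences in each direction whose arrays do not overlap, except provisional and small RNA symbols. It adds the 2 largest calls per list and direction, all probe sets of the domain, a fixed set of markers, the 6 largest uncalled differences and 3 imprinted genes in each direction, and every probe set of a named gene. Alternatives changed the arrays fitted, scaling, filter on dim probe sets, probe set choice, variance model, array weights, replicate block, least difference, and left out each array in turn.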

Additional observations from a re-analysis of the deposited data

Results flagged for a closer look

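By the limma interaction over 18 arrays, 166 of all probe sets (0.762%) changed between the days at adjusted p under 0.05. Many of the named genes were picked for their day 5 differences, and the same day 5 arrays enter the test, so their count is descriptive. For 12 named genes, miRNA genes left aside, the ST8 minus ES difference changed between day 0 and day 5. It moved down by -2.45 in Nnat, -2.21 in Meg3, -1.92 in Tgfb2, -1.87 in Kcnma1, -1.15 in Platr25 and -0.68 in Lyplal1. Sycp1, a gene of the meiotic synaptonemal complex, moved by -2.44, with a difference of -0.02 at day 5 and 2.42 at day 0 (adjusted p = 1.16e-05 for the change). Cer1 moved by -1.55, with a difference of -0.35 at day 5 and 1.20 at day 0 (adjusted p = 0.018). Phlda2 moved up by 0.48, Pygl by 0.75, Rassf6 by 0.96 and Cpq by 1.14.

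A probe set outside the tested ones, listed with both Mir675 and Supt6, had 10.60, 11.62 and 10.91 in ST8 arrays and 5.99, 6.18 and 6.51 in ES arrays at day 5. The difference was 4.82 (SE 0.24, adjusted p = 8.34e-05 over all deposited probe sets), a 28.2-fold higher level. At day 0 it was -0.09 (adjusted p = 0.809). In ST5 arrays at day 5 it had 10.62, 10.51 and 10.54. Mir675 is known to be made from the imprinted RNA H19, and the annotation alone does not give the signal to 1 of the listed genes. Supt6 has a probe set of its own, which averaged 9.10 in ST8 and 9.08 in ES endoderm (difference 0.02, adjusted p = 0.953).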

How the results depend on the processing

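None of the called probe sets named by the rule turned its direction in an alternative that was run. Of the 36 calls, 6, Meg3, Nnat, Rian, AI506816, DQ267102 and the lower Kcnma1 probe set, passed the test in each alternative that could be run on them. The count of 36 calls was 193 with all 18 unamplified arrays (82 higher), 9 with the 6 arrays alone, 60 over all deposited probe sets, 1051 with array weights, 10 with the replicate block, 7 for a least difference of 1 and 1719 without ST8 replicate 2 and ES replicate 1. Leaving out 1 array gave 14 to 266 calls, with 266 without ST8 replicate 2 and 143 without ES replicate 1. Without ST8 replicate 1, ST8 replicate 3, ES replicate 2 or ES replicate 3 it gave 14, 17, 17 and 15. With dim probe sets left out 48.3% of calls were higher, against 33.3%.

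The domain's 13 calls became 32 with 18 arrays, 5 with 6 arrays, 4 without dim probe sets, 33 with array weights, 5 with the replicate block, 3 for a least difference of 1, 33 without both arrays, and 6 to 25 without 1 array. The 166 changes between days became 84 with 12 arrays, 137 with the replicate block and 90 to 690 without 1 array (690 without ST8 day 5 replicate 2, 545 without ES day 5 replicate 1). The 25 calls shared with day 0 stayed at 21 to 25. The mean of both Kcnma1 probe sets differed by -0.93 (adjusted p = 0.00792), opposite in sign to the uncalled probe set, because the called one makes the mean. Counts for the domain and for day 0 under the alternatives were added after seeing the data. The causes of the moved counts were not tested. The number of arrays, not a depth, limits these values. Probe sets near the bottom of the scale leave less room for a fall, though Mir154, with an ES mean of 3.96, differed by -1.51.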

Other observations

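Some genes induced by interferon, chosen after their values were seen, had large negative differences that were not called, and others did not. Iigp1, an interferon-inducible GTPase, had 2.64, 2.86 and 2.54 in ST8 arrays and 3.11, 4.13 and 4.01 in ES arrays (difference -1.07, adjusted p = 0.172). The guanylate-binding gene Gbp8 had 4.06, 3.97 and 4.06 in ST8 arrays and 4.53, 5.67 and 5.11 in ES arrays (difference -1.07, adjusted p = 0.172). Gbp4 differed by -1.10 and Gbp2b by -1.18 (adjusted p = 0.36 and 0.528). Irf1, an interferon regulatory factor, differed by -0.29 and -0.01 on its probe sets (adjusted p = 0.819 and 0.972), and Trim12c by 0.37 (adjusted p = 0.703). Without ST8 replicate 2 and ES replicate 1 Iigp1 differed by -1.48 (adjusted p = 3.97e-05) and Gbp2b by -1.45 (adjusted p = 0.00295), whereas Gbp5 differed by -0.09 (adjusted p = 0.481) and Trim12c by 0.36 (adjusted p = 0.026). At day 0 the differences of Iigp1 and Gbp8 were 0.04 and 0.12.

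Several of the largest differences of undifferentiated cells were near 0 in endoderm. Cyp26a1, which breaks down retinoic acid, differed by -0.16 at day 5 and by 2.41 at day 0. Bmp4 differed by -0.35 at day 5 and by 2.02 at day 0, and Epha4, an ephrin receptor, by -0.29 at day 5 and 1.95 at day 0.

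Among probe sets that do not name 1 gene, 28 were called over all deposited probe sets, 14 higher and 14 lower, 25 of them not listed with any gene. The widest of these had 11.53, 12.18 and 11.70 in ST8 arrays and 5.71, 6.81 and 6.80 in ES arrays. In ST5 arrays at day 5 it had 11.55, 11.49 and 11.55. At day 0 its ST8 minus ES difference was -0.11 (limma adjusted p = 0.723). This pattern is like that of the probe set listed with Mir675 and Supt6, and the gene it reads is not given.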
